A study of Mus musculus with 5 samples.

Results

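Perivascular macrophages are resident phagocytes of the brain that sit between the vessel wall and the glial end-feet, and the genes used to recognise them here encode scavenger and hyaluronan receptors, a chemokine, a transglutaminase and a membrane protein of the MS4A family. Part of these macrophages also carry MHC class II, the cell surface molecule that presents peptides from engulfed proteins to CD4+ T cells. The 10 genes described here are *Mrc1*, *Cd163*, *Lyve1*, *Pf4*, *F13a1* and *Ms4a7* for the macrophages and *Cd74*, *H2-Aa*, *H2-Ab1* and *H2-Eb1* for MHC class II. They were chosen by name, and each matched 1 Ensembl identifier of the NCBIM37 annotation, so that the 10 genes are 10 of 34615 gene symbols in the data.

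RNA sequencing was performed on microvascular fragments isolated from the brains of 3 WT and 2 Ins2-AKITA mice, 1 library per mouse. All were males on a C57Bl/6-J background, 26 to 38 weeks old, and the age of the single mice was not given. Ins2-AKITA mice are heterozygous for a mutation of the insulin 2 gene that is toxic to pancreatic beta cells and makes the animals hyperglycemic, and the WT mice were littermates without it. The fragments had been captured with magnetic beads against PECAM1, a protein of endothelial cells that is not confined to them. Whether macrophages remained attached to the vessels, were carried along or were bound by the beads was not tested. FPKM values, fragments scaled to exon length and to the mapped fragments of the library, were analysed as deposited, and a genotype difference is given as a log2 fold change of Ins2-AKITA over WT on the log2(FPKM + 1) scale.

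Depth was low. It was estimated, from the size of the step between low FPKM values, at 1127410 to 2850623 fragments per mouse, with Ins2-AKITA replicate 1 the shallowest and WT replicate 3 the deepest. WT replicate 1 had the lowest value in 12 of 15 genes of microglia, the macrophages of the brain parenchyma. The rest of this list went the other way. WT replicate 1 was the highest mouse for *C1qc* (34.8 FPKM), and only WT replicate 3 exceeded it for *C1qa* (26.3) and *C1qb* (49.7). Among 15 pan-macrophage and myeloid genes it was lowest in 4. Endothelial genes (12 listed) summed to an FPKM of 1012, 1116 and 695 across WT libraries against 737 and 575 across Ins2-AKITA libraries, and astrocyte genes (6 listed) to 1494, 1958 and 2198 across WT libraries against 2609 and 2990 across Ins2-AKITA libraries. The part of this composition in the results below was not tested.

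All 10 genes were low. Their mean FPKM over the 5 mice ran from 0.245 for *Lyve1* to 4.01 for *H2-Ab1*, which exceeded 29.0% and 49.9% of protein-coding genes. For comparison, the 15 microglia genes had mean FPKM values of 1.40 to 44.4, and 14 of them were above *H2-Ab1*. *Csf1r*, the growth factor receptor on which macrophages and microglia depend, had a mean FPKM of 27.2. In order of mean FPKM, *H2-Ab1* was followed by *Cd74*, *H2-Eb1*, *H2-Aa*, *Mrc1*, *F13a1*, *Cd163*, *Ms4a7*, *Pf4* and *Lyve1*. In none of the 9 pairs of neighbours in this order did the mean difference within mice exceed its own SD. Between *H2-Ab1* and *Cd74* it was 0.282 ± 1.83 FPKM (SD, n = 5), and between *Mrc1* and *F13a1* it was 0.560 ± 1.43 FPKM (SD, n = 5).

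**Figure D1:**
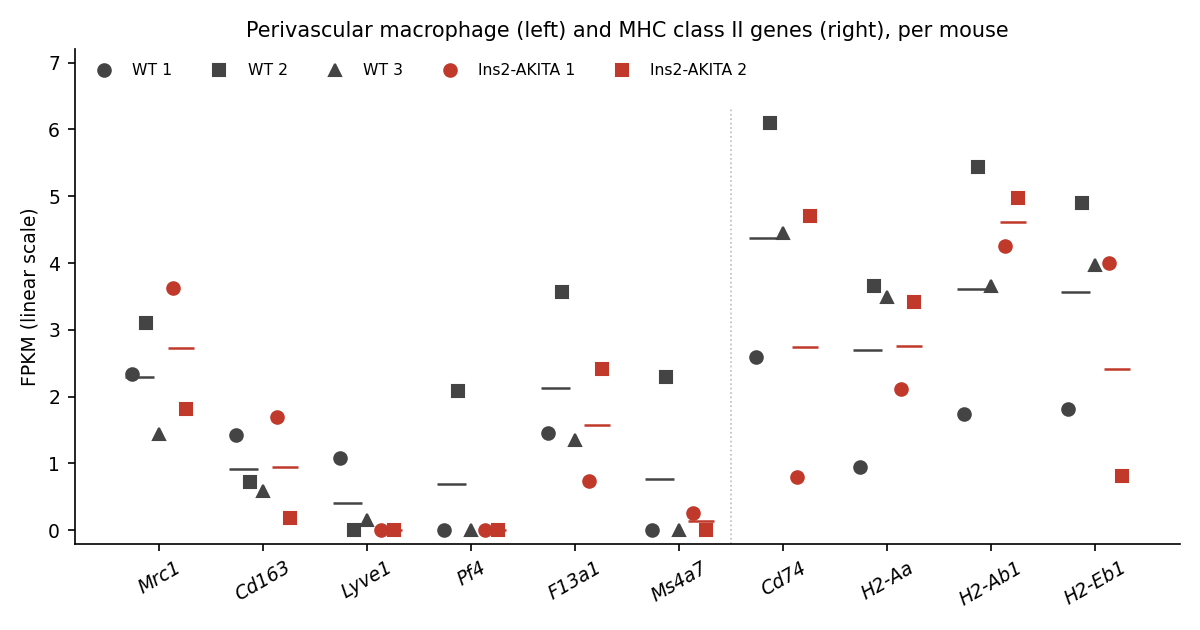
FPKM (linear axis) of the 10 genes in each mouse, with WT in grey, Ins2-AKITA in red, marker shape for the replicate number and short lines for the group means. The genotypes overlap for every gene, no value exceeds 6.10, and WT replicate 2 is the highest mouse for 7 of the 10 genes.

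*Mrc1* encodes the mannose receptor CD206, which takes up glycoproteins and is the most widely used marker of perivascular macrophages. The gene spans bases 14151041 to 14253684 of chromosome 2 (plus strand, NCBIM37, as for all gene positions here). Its FPKM was 2.34, 3.10 and 1.44 in the WT mice (replicates 1 to 3, always in this order) against 3.63 and 1.82 in the Ins2-AKITA mice (replicates 1 and 2). The highest value belonged to an Ins2-AKITA mouse and the lowest to a WT mouse, with means of 2.29 ± 0.834 (SD, n = 3) and 2.73 ± 1.28 (SD, n = 2). The log2 fold change was 0.17 ± 0.45 (SE) with a limma adjusted p of 0.96, and its 95% interval ran from -0.93 to 1.27. The values correspond to at most 21.0 estimated fragments in any mouse, if all came from the longest annotated transcript of 5352 bases. In bulk RNA, fewer macrophages and less RNA per macrophage cannot be told apart.

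*Cd163*, the receptor that clears haemoglobin bound to haptoglobin, is on the plus strand of chromosome 6 from 124254669 to 124280545. It had an FPKM of 1.43, 0.724 and 0.587 across WT libraries against 1.70 and 0.186 across Ins2-AKITA libraries. Both extremes were thus Ins2-AKITA mice, and the WT values lay between them. With a mean of 0.925 it did not reach the mean FPKM of 1 required for the test; without this filter its log2 fold change was -0.07, with a 95% interval from -1.41 to 1.27 and an adjusted p of 1.0 from limma. The value of 0.186 in Ins2-AKITA replicate 2 corresponds to an estimated 1.02 fragments.

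*Lyve1*, a hyaluronan receptor shared by a subset of perivascular macrophages and lymphatic endothelium, was scarcely detected. Located on the minus strand of chromosome 7 from 117994121 to 118006467, it had an FPKM of 1.08 in WT replicate 1 and 0.147 in WT replicate 3, and was listed at 0 in WT replicate 2 and in both Ins2-AKITA mice. These values correspond to an estimated 3.00 and 1.00 fragments, so no fold change is given. A count of 3 fragments would have been written as 0.442 FPKM in the deepest library and 1.12 in the shallowest. Of the lymphatic genes, *Ccl21a* and *Mmrn1* were listed at 0 in all mice, while *Prox1* and *Pdpn*, which astrocytes and other brain cells also express, had 10.3 to 12.9 and 10.8 to 23.8 FPKM. The others, *Flt4* and *Reln*, were also above 0 in every mouse, with 2.71 to 7.67 and 10.8 to 20.6 FPKM. Whether lymphatic endothelium contributed to the *Lyve1* values was not tested.

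*Pf4*, the chemokine CXCL4, is made by perivascular macrophages and in large amounts by megakaryocytes and platelets. It lies on the plus strand of chromosome 5 from 91201461 to 91202407. It was listed at 0 in 4 mice and had an FPKM of 2.09 in WT replicate 2, an estimated 0.997 fragments on its 586 bases of exon. Its limit of 3 fragments corresponds to an FPKM of 2.93 to 7.38, the highest among the 10 genes, and no genotype difference could have been detected below it.

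*F13a1* encodes the A subunit of coagulation factor XIII, a transglutaminase that cross-links fibrin and is found in macrophages and platelets. On the minus strand of chromosome 13 from 36959047 to 37142113, it had an FPKM of 1.45, 3.57 and 1.35 across WT libraries against 0.733 and 2.42 across Ins2-AKITA libraries. The Ins2-AKITA mice lay on either side of WT replicates 1 and 3 and below WT replicate 2. The log2 fold change was -0.29 ± 0.56 (SE) with a limma adjusted p of 0.95, and its 95% interval ran from -1.63 to 1.05.

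Platelet genes were measured beside these last 2 genes because platelets share them. *Ppbp* and *Treml1*, which mark platelets closely, were listed at 0 in all mice. The 9 platelet genes summed to 18.8, 20.7 and 12.7 FPKM in the WT libraries against 7.35 and 11.2 in the Ins2-AKITA libraries, without overlap. This was not particular to platelets. The sums of the further border macrophage, monocyte and neutrophil, lymphocyte and red blood cell lists below also did not overlap, nor did 19.5% of single genes tested. *Itga2b*, the platelet integrin CD41, had the lowest fold change of the list, with 10.3, 8.47 and 3.27 FPKM in the WT libraries against 1.14 and 2.26 in the Ins2-AKITA libraries, or -1.55 ± 0.51 (SE) on the log2 scale (limma adjusted p = 0.90), and it alone of the platelet genes had an unadjusted p under 0.05. Under TPM, each library rescaled to the same FPKM sum, this value was -0.015, where the median of all genes moved to 1.07. At the other end of the platelet list, *Gp1bb* was at -0.16 (standard error 0.35). Whether platelets contributed to the *F13a1* and *Pf4* values was not tested.

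*Ms4a7*, a tetraspan membrane protein that separates border macrophages from microglia, is on the minus strand of chromosome 19 from 11395529 to 11410636. Detection was confined to WT replicate 2, with an FPKM of 2.29, and Ins2-AKITA replicate 1, with 0.262; it was listed at 0 in WT replicates 1 and 3 and in Ins2-AKITA replicate 2. The value of WT replicate 2 corresponds to between 0.838 and 10.2 fragments, depending on which of its 5 annotated transcripts gave rise to them. Without the filter the log2 fold change was -0.41, with a 95% interval from -2.28 to 1.47 (adjusted p = 1.0 from limma), and it was 0.17 without WT replicate 2.

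**Figure D2:**
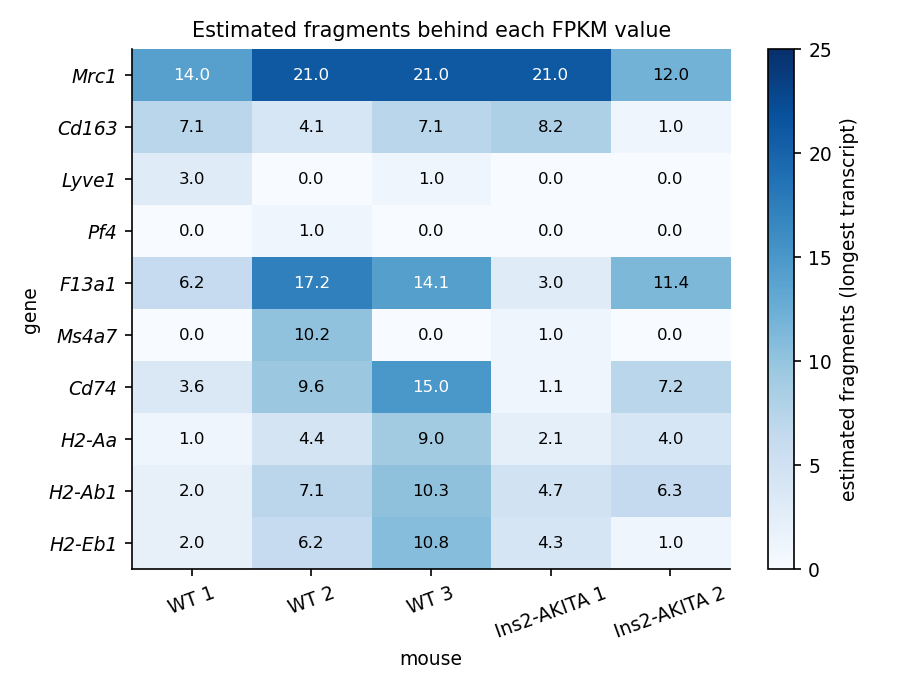
Estimated number of fragments behind each FPKM value, for the 10 genes (rows) in the 5 mice (columns), under the assumption that all fragments came from the longest annotated transcript. *Mrc1* has at most 21.0 fragments in a mouse, whereas *Lyve1* and *Pf4* have 4 and 0.997 over all mice.

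MHC class II consists of an alpha and a beta chain that meet in the endoplasmic reticulum, where the invariant chain CD74 holds the peptide groove closed until the complex reaches the endosome. The genes of the chains lie side by side on chromosome 17 of NCBIM37, with *H2-Ab1* on the plus strand from 34400154 to 34406363, *H2-Aa* on the minus strand from 34406276 to 34424772 and *H2-Eb1* on the plus strand from 34442828 to 34453144. The annotated ends of *H2-Ab1* and *H2-Aa* overlap by 88 bases on opposite strands. The libraries kept the strand, but whether the counting used it is not given in the sources used here.

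Transcription of these genes is switched on by CIITA, a coactivator that binds no DNA itself and is recruited by RFX at the X box and NF-Y at the Y box of their promoters. Promoter sequences from RefSeq, on build GRCm38.p6 and covering 250 bases before to 50 bases after the start of transcription, were held for 7 of the 10 genes, *H2-Aa* and *H2-Eb1* among the MHC class II genes. Both are shown because they carry the 2 boxes through which the measured regulators act. Capitals mark the X box core GNAAC and the Y box GATTGG, which were searched as a pair with 25 to 40 bases between their first bases. In the 10 genes and the genes of the MHC class II pathway, only the strand of the gene was searched. The motif letters and the spacing were chosen after the sequences had been read. Each promoter is written on the strand of its gene, *H2-Aa* from chr17:34287774-34288073 on the minus strand and *H2-Eb1* from chr17:34305617-34305916 on the plus strand.
H2-Aa: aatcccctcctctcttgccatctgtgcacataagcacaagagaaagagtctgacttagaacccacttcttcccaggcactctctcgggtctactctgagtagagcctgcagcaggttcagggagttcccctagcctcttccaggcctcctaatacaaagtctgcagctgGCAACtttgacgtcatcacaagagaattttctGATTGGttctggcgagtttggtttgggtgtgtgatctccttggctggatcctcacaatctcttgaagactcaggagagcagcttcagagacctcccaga
H2-Eb1: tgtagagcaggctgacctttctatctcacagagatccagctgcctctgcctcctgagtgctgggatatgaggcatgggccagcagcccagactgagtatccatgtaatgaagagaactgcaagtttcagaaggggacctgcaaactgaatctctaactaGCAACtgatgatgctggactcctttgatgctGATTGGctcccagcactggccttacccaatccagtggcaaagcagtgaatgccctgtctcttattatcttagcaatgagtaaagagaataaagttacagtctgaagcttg

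In *H2-Aa* the X box core began 81 bases and the Y box 49 bases before the start of transcription, and in *H2-Eb1* these distances were 91 and 60 bases. The same pair was found in 6 of the 8 H2 genes of the members and the pathway list with a promoter in the table, and in 0 of the 15 other genes of these lists. As the pattern was chosen after the sequences had been read, these counts are no test of it. They count genes, some with more than 1 promoter, whereas the shares that follow count single promoters. Of all 32851 promoters, 0.457% held the pair on the strand of the gene, the search used for these lists, and 0.922% on either strand. The first bases of the 2 boxes were 29 to 32 bases apart in the 6 genes. *H2-DMb1*, *H2-Oa*, *H2-Ob* and *H2-Eb2*, which encode chains of the peptide editors H2-DM and H2-O and a further beta chain, are shown around the boxes for comparison of their spacing, from chr17:34153087-34153144, chr17:34092293-34092350, chr17:34238808-34238862 and chr17:34325533-34325589, all on the plus strand.
H2-DMb1: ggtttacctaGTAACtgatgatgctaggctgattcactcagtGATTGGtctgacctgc
H2-Oa: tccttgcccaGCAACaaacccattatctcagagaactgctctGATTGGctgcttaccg
H2-Ob: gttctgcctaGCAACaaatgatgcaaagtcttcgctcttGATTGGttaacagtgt
H2-Eb2: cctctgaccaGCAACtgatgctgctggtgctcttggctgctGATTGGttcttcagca
The letters outside the boxes differ between the genes, and a match is a description of the sequence and not of factor binding in these samples.

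**Figure D3:**
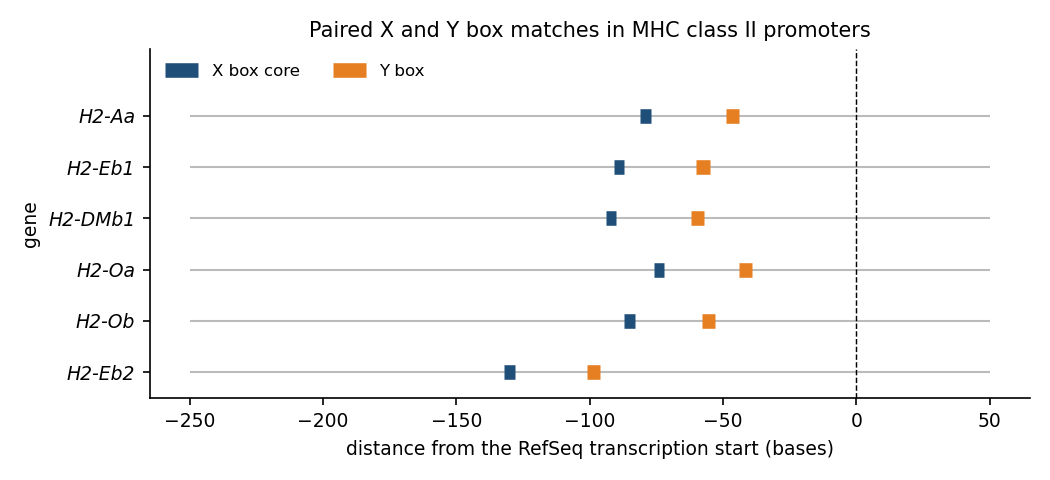
Position of the X box core (blue) and the Y box (orange) in the 6 promoters that held the pair, as distance in bases from the RefSeq transcription start (dashed line). The pair lies upstream of the start in every promoter, with the boxes 29 to 32 bases apart.

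*Cd74* had an FPKM of 2.59, 6.10 and 4.45 in WT replicates 1 to 3 against 0.792 and 4.71 in Ins2-AKITA replicates 1 and 2. Ins2-AKITA replicate 1 was thus below every WT mouse, while the other one fell among the WT values. Group means amounted to 4.38 ± 1.76 (SD, n = 3) and 2.75 ± 2.77 (SD, n = 2), and the log2 fold change was -0.69 ± 0.60 (SE) with a limma adjusted p of 0.90, and its 95% interval ran from -2.14 to 0.75. It became 0.14 without Ins2-AKITA replicate 1 and -1.53 without Ins2-AKITA replicate 2. The value of Ins2-AKITA replicate 1 corresponds to at most 1.06 estimated fragments.

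*H2-Aa*, the alpha chain of the I-A molecule, had an FPKM of 0.945, 3.66 and 3.49 across WT libraries against 2.11 and 3.42 across Ins2-AKITA libraries. WT replicate 1 was the lowest mouse, at no more than 1.0 estimated fragments, and the other 4 values lay within 2.11 to 3.66. The log2 fold change was 0.11 ± 0.53 (SE) with a limma adjusted p of 0.98, and its 95% interval ran from -1.17 to 1.39.

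For *H2-Ab1*, the beta chain that pairs with it, the FPKM was 1.74, 5.43 and 3.66 across WT libraries against 4.25 and 4.97 across Ins2-AKITA libraries. WT replicate 1 was again the lowest, at no more than 2.0 estimated fragments, and both Ins2-AKITA values lay between WT replicates 3 and 2. Its log2 fold change of 0.36 ± 0.45 (SE) was the highest among the 10 genes, its limma adjusted p was 0.91 and its 95% interval ran from -0.71 to 1.44.

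*H2-Eb1* encodes the beta chain of the I-E molecule. Its FPKM was 1.81, 4.90 and 3.97 across WT libraries against 4.0 and 0.819 across Ins2-AKITA libraries. Ins2-AKITA replicate 2 was the lowest mouse, at no more than 1.0 estimated fragments, and replicate 1 was close to the upper WT values. The log2 fold change was -0.53 ± 0.59 (SE) with a limma adjusted p of 0.90, and its 95% interval ran from -1.95 to 0.89. C57Bl/6-J mice carry a defective gene for its alpha chain partner, and *H2-Ea-ps* was listed at 0 in all 5 mice; this gene was looked up after the other values had been seen. The lowest Ins2-AKITA mouse was replicate 1 for *Cd74*, *H2-Aa* and *H2-Ab1* and replicate 2 for *H2-Eb1*.

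All 10 genes overlapped between WT and Ins2-AKITA mice. For *Lyve1*, *Pf4* and *Ms4a7* this follows from values of 0 in mice of both genotypes. The share for comparison covers only the 16286 tested genes, a filter that 6 of the 10 genes passed. Of these tested genes, 19.5% had groups that did not overlap (9.24% with both Ins2-AKITA mice above and 10.3% with both below all WT mice). Of the 6 genes with a mean FPKM of at least 1 (*Mrc1*, *F13a1* and the 4 MHC class II genes), limma called 0 at an adjusted p of 0.05, and 0 had an unadjusted p under 0.05, beside 0.0246% and 4.46% of all genes tested. Of these 6, 3 were lower in Ins2-AKITA mice, beside 53.5% of all genes tested. The other 4 genes were below the filter and had unadjusted p-values between 0.32 and 0.89 in limma without it. Exact two-sided permutation tests of the 10 genes gave p-values between 0.5 and 1.0, where 3 mice against 2 cannot go below 0.1. The median log2 fold change was -0.21 for the 4 MHC class II genes, and for the 6 macrophage genes -0.35 as fitted, -0.18 without *Lyve1* and *Pf4* and -0.06 for the 2 past the filter, against -0.03 for all genes tested. The signs of *Cd163*, *F13a1*, *Cd74* and *H2-Eb1* turned under TPM, a rescaling to equal FPKM sums that moved the median of all genes to 1.07. Each of the 8 intervals reached at least 0.71 on the log2 scale to both sides of 0, so these mice do not show that the genes were equal between genotypes.

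**Figure D4:**
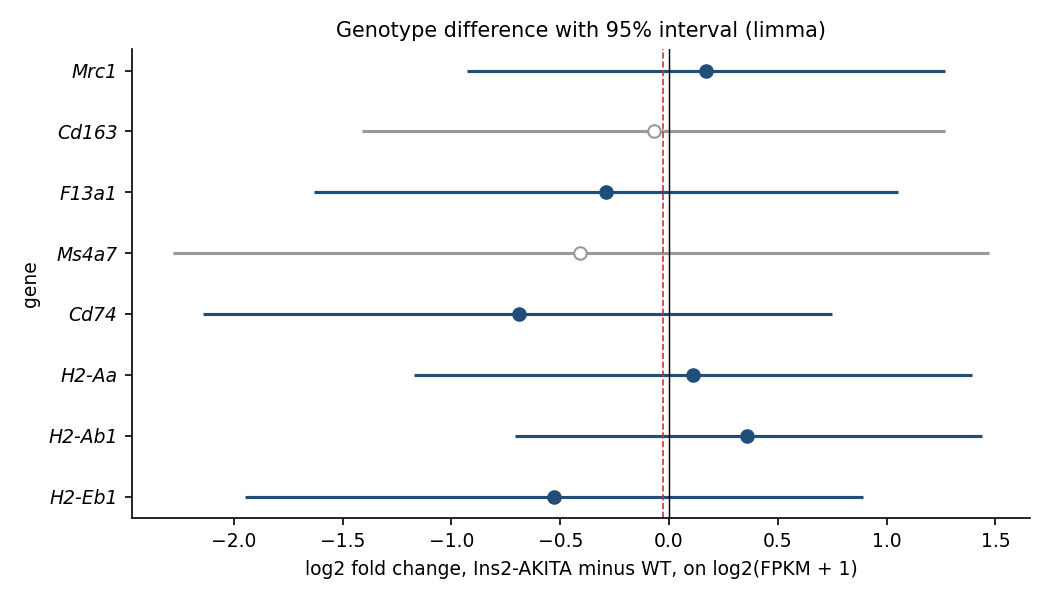
Log2 fold change of Ins2-AKITA over WT on the log2(FPKM + 1) scale with 95% intervals from limma, for the 8 genes with a usable fold change. Filled points are the 6 genes that passed the filter, open grey points come from the fit without it, and the dashed line marks the median of all genes (-0.03). All 8 intervals include 0.

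Summed over its members, the macrophage set had an FPKM of 6.30, 11.8 and 3.53 across WT libraries against 6.32 and 4.43 across Ins2-AKITA libraries, and the MHC class II set 7.09, 20.1 and 15.6 across WT libraries against 11.1 and 13.9 across Ins2-AKITA libraries. WT replicate 2 was highest in both sets. The lowest mouse was WT replicate 3 for the macrophage set and WT replicate 1 for MHC class II, so the sets did not order the mice alike. As a ratio to the summed FPKM of the 15 pan-macrophage and myeloid genes, a separate list that holds none of the 10 genes, the MHC class II sum stood at 5.05%, 11.7% and 8.86% across WT libraries against 6.40% and 9.49% across Ins2-AKITA libraries. For the macrophage set this ratio was 4.49%, 6.87% and 2.01% across WT libraries against 3.63% and 3.02% across Ins2-AKITA libraries, again with overlap. Relative to the endothelial sum the overlap remained, with 0.507% to 1.06% and 0.770% to 0.858% for the macrophage set.

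**Figure D5:**
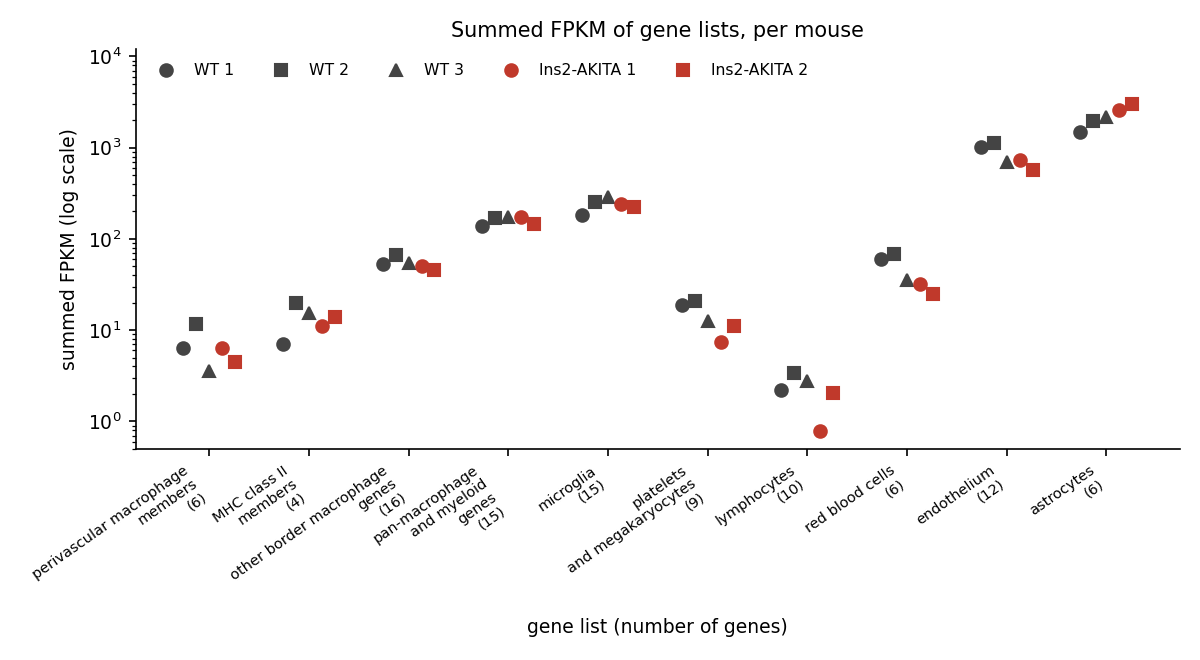
Summed FPKM (log axis) of gene lists in each mouse, with the number of genes per list in brackets, WT in grey and Ins2-AKITA in red. The macrophage set (3.53 to 11.8) and the MHC class II set (7.09 to 20.1) lie well below the microglia list (183 to 289) in every mouse.

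Of 16 further genes of border macrophages, 3 (*Cd209g*, *Ccl8* and *Ccl24*) were listed at 0 in all mice and 6 passed the filter. Among these 6, 3 were higher and 3 lower in Ins2-AKITA mice, the median log2 fold change was 0.02, and 0 had an unadjusted p under 0.05 in limma. *Hmox1*, the haem-degrading enzyme that acts downstream of CD163, had 12.2, 9.47 and 9.33 FPKM in the WT libraries against 0.642 and 8.57 in the Ins2-AKITA libraries. The difference of -1.50 ± 0.71 (SE) on the log2 scale, limma adjusted p = 0.90, was -0.23 without Ins2-AKITA replicate 1 and -2.78 without replicate 2. *Clec10a*, a lectin of border macrophages and dendritic cells, was at the other end with 0.99 (standard error 0.84), being listed at 0 in WT replicates 1 and 2. The summed FPKM of the 16 genes was 53.7, 67.4 and 54.8 across WT libraries against 50.8 and 45.9 across Ins2-AKITA libraries; *Dab2*, *Stab1*, *Maf* and *Hmox1*, which other cells of the vessel wall and brain also express, made up most of it.

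In the MHC class II pathway, 15 of 20 genes passed the filter, 6 higher and 9 lower in Ins2-AKITA mice with a median log2 fold change of -0.17, and 0 passed an adjusted p of 0.05 in limma while 1 had an unadjusted p under 0.05. *Ciita*, the coactivator itself, had 2.81, 3.33 and 2.08 FPKM in the WT libraries against 4.05 and 0.557 in the Ins2-AKITA libraries, which thus held both the highest and the lowest value. *Rfx5*, the DNA-binding subunit of RFX, had 17.4, 17.9 and 11.5 FPKM in the WT libraries against 15.7 and 11.4 in the Ins2-AKITA libraries. The gene with the unadjusted p under 0.05 was *Creb1*, a widely expressed factor that binds beside RFX at the X box, with 12.2, 6.95 and 13.5 FPKM in the WT libraries against 25.2 and 18.1 in the Ins2-AKITA libraries (0.96 ± 0.34 (SE) on the log2 scale, limma adjusted p = 0.90). *Nfyc*, a subunit of NF-Y, had the lowest fold change (-0.82, standard error 0.52). *Ctss*, the protease cathepsin S that trims the invariant chain, had the highest mean FPKM of the list, with 68.3, 93.8 and 95.2 FPKM in the WT libraries against 91.1 and 91.8 in the Ins2-AKITA libraries, and microglia express it as well.

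The RNA of interferon gamma, the main inducer of *Ciita* outside professional antigen presenting cells, was not detected, as *Ifng* was listed at 0 in all mice. At the low depth of these libraries a rare transcript can be missed, and the protein was not measured. Among the 11 of 13 inducer and growth factor genes that passed the filter, 5 were higher and 6 lower, 0 had an unadjusted p under 0.05 in limma, and the log2 fold changes ran from -0.45 for *Csf1* (standard error 0.42), a growth factor of macrophages, to 0.26 for *Ifngr2* (standard error 0.42), a chain of the interferon gamma receptor. All 15 pan-macrophage and myeloid genes passed the filter, 7 higher and 8 lower with a median of -0.07, from -0.88 for *Cd14* (standard error 0.45) to 0.67 for *Spi1* (standard error 0.59). *Spi1*, a transcription factor of myeloid cells, was at 0.067 without Ins2-AKITA replicate 1 and at 1.28 without replicate 2. The 15 microglia genes had a median of 0.18, with 10 higher and 5 lower, from -0.42 for *Slc2a5* (standard error 0.68) to 0.77 for *Gpr34* (standard error 0.73), which was 0.059 without WT replicate 1. In both lists limma gave 0 genes with an unadjusted p under 0.05.

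Lymphocytes, dendritic cells and monocytes can also carry MHC class II. Of 10 lymphocyte genes 4 (*Cd3d*, *Cd3g*, *Cd79b* and *Nkg7*) were listed at 0 in all mice. *Cd4* was above 0 in every mouse (0.308 to 1.58 FPKM), and the others were above 0 in some mice only. Among these, *Cd79a* had 1.84 and 1.14 FPKM in WT replicates 2 and 3, and *Cd3e* 0.708 and 0.58 in WT replicates 1 and 3. *Ms4a1* had 0.484 and 0.425 FPKM in Ins2-AKITA replicates 1 and 2. The list summed to 2.19, 3.42 and 2.77 FPKM in the WT libraries against 0.792 and 2.05 in the Ins2-AKITA libraries. The dendritic cell gene *Xcr1* and the monocyte and neutrophil genes *Plac8*, *S100a8* and *Camp* were likewise at 0 throughout, but other genes of these lists were detected in every mouse. *Zbtb46*, a factor of dendritic cells that endothelial cells also express, had a mean FPKM of 7.14, above each of the 10 genes, *Flt3*, a growth factor receptor of dendritic cell precursors, had 2.2, and *Csf3r*, the receptor for the granulocyte growth factor, had 2.56. The dendritic cell list of 8 genes summed to 11.5, 15.4 and 11.5 FPKM in the WT libraries against 11 and 12 in the Ins2-AKITA libraries. *Zbtb46* was the largest part of this sum in every mouse. Of the other genes of the list, *Batf3* had a mean FPKM of 1.48, *Cd209a* 0.674, *Clec9a* 0.523, *Ccr7* 0.181 and *Itgax* 0.065. Whether dendritic cells contributed to the MHC class II values was not tested. The monocyte and neutrophil list of 10 genes held mostly *Fn1*, a matrix gene of many cells with a mean FPKM of 59.1. Red blood cell genes (6 listed) summed to 60.1, 67.7 and 35.1 FPKM in the WT libraries against 32.4 and 25.2 in the Ins2-AKITA libraries. Among the lists of other cell types, further genes beside *Itga2b* had an unadjusted p under 0.05 in limma. They were *Ly6c1* (log2 fold change -1.08) and *Cdh5* (-0.58) of endothelium, *Hba-a2* (-1.16) of red blood cells, *Retnlg* (-1.40) of neutrophils and *Aldh1l1* (1.03) of astrocytes. Their limma adjusted p-values were 0.80 to 0.90. Under TPM, which moved the median of all genes to 1.07, the signs of *Ly6c1*, *Cdh5* and *Hba-a2* turned.

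By shape alone, the genes closest to the summed macrophage set over the 5 mice, among 11263 with a mean FPKM of at least 5, were *Rgs11*, *Smyd5*, *Gm4392*, *Leprel2* and *Fhit*. Their root-mean-square distances were 0.0744 to 0.103 on the centred log2 scale, where the set itself had an SD of 0.508. *Slc38a5*, *Psmg1*, *Rfc1*, *Cul5* and *Dpysl3* were closest to the summed MHC class II set, at 0.110 to 0.129 with an SD of 0.466. The members of both sets were left out of this search beforehand, and 5 mice are too few for a correlation.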

How the data were processed

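Stranded total RNA libraries (SMARTer, after RiboGone depletion of ribosomal RNA) were mapped by the authors to NCBIM37 with TopHat2 2.0.4, duplicates were removed with Picard 1.92, and Cufflinks 2.2.1 was used, per the labels and the methods of the study. The deposited values are FPKM per Ensembl gene and mouse, and the Ensembl release is not given in the sources used here. Removing duplicates can lower highly expressed genes. The 10 genes and all gene lists were chosen with earlier results of these data known.

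Identifiers were matched to GENCODE vM1, which held 37197 of 37982, and rows with a shared symbol were summed. *Spi1* and *Adgre1* were matched through RefSeq synonyms. The filter, a mean FPKM of 1 or more over the 5 mice, left 16286 symbols, which were tested on log2(FPKM + 1) with limma 3.58.1 in R 4.3.3 (genotype only, eBayes with a trend, two-sided, Benjamini-Hochberg adjustment over all genes tested). The fit was also run on simulated normal log2 values. These held no steps of single fragments, so that run does not cover genes with few fragments. Medians of the 2 sets cover all members, although the planned medians covered only those past the filter. Exact permutation tests used the 10 splits of the 5 mice. Whether mice share more than genotype is unknown beyond their being littermates.

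Depth was estimated from genes with 1 transcript, where FPKM is a whole number of fragments divided by the depth and by the exon length less 224.3 to 228.9 bases. Of values up to 10 fragments, 97.47% to 97.66% per mouse were whole within 0.05. Limits of 3 fragments cover counting error only.

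Alternative settings comprised another pseudocount (0.1), the filter removed or raised to 5, 5 other scalings, a constant prior, the replicate number as a block, the highest row per symbol and each mouse left out. Named beside the 10 genes are, for the macrophage, MHC class II, inducer, microglia and platelet lists, the genes with an unadjusted p under 0.05 and the lowest and highest fold change, genes at 0 in all mice, and for each set the 5 genes of most similar shape. The rule also names the lowest and highest fold change of the other lists, which are not printed; for these only sums, genes at 0 and genes with an unadjusted p under 0.05 are given. *Csf1r*, *Ciita*, *Rfx5*, *Ctss*, *Dab2*, *Stab1*, *Maf*, *Prox1*, *Pdpn*, *Fn1*, *Zbtb46*, *Flt3*, *Csf3r* and *H2-Ea-ps* were added after their values were seen. The same holds for *C1qa*, *C1qb*, *C1qc*, *Batf3*, *Cd209a*, *Clec9a*, *Ccr7*, *Itgax*, *Cd4*, *Cd79a*, *Cd3e*, *Ms4a1*, *Flt4* and *Reln*. Immunostaining, tracer and quantitative PCR experiments were not analysed here.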

Additional observations from a re-analysis of the deposited data

How the results depend on the processing

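No alternative called any of the genes it tested (0 each); these were all 10 with no filter, 6 or 7 in the others, and none with a mean FPKM of at least 5. The medians of the macrophage and MHC class II sets (-0.35 and -0.21) ranged from -0.49 to 0.01 and from -0.57 to 0.25 with 1 mouse left out; they were 0.07 and 0.57 under TPM and -0.12 and 0.12 with the scaling to the endothelial sum. These scalings moved the median of all genes from -0.03 to 1.07 and 0.41. Over all genes, 0 were higher and 4 lower; these became 34 and 1 with no filter, 58 and 30 with TPM and 1 and 2 with a constant prior, 2 were lower with a mean FPKM of at least 5, and with 1 mouse left out they ranged from 0 to 10 and from 2 to 10. Leaving out an Ins2-AKITA mouse leaves 1, which is then assumed to vary like the WT mice.

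Signs turned under TPM for *Cd163* (0.18), *F13a1* (0.48), *Cd74* (0.47), *H2-Eb1* (0.22), *Hmox1* (0.25), *Nfyc* (0.69), *Csf1* (0.83), *Cd14* (0.17), *Slc2a5* (0.24), *Gp1bb* (0.91), *Ly6c1* (0.59), *Cdh5* (0.96) and *Hba-a2* (0.30), under the endothelial scaling for *Cd163* (0.11), *F13a1* (0.056), *Csf1* (0.0020) and *Gp1bb* (0.28), and with quantile normalization for *Cd163* (0.16). Omitting single mice gave -0.19 to 0.52 for *Mrc1*, -0.67 to 0.52 for *Cd163*, -0.78 to 0.20 for *F13a1*, -0.69 to 0.17 for *Ms4a7*, -1.53 to 0.14 for *Cd74*, -0.30 to 0.36 for *H2-Aa*, 0.031 to 0.65 for *H2-Ab1*, -1.26 to 0.20 for *H2-Eb1*, -1.07 to 0.16 for *Csf1*, -0.078 to 0.55 for *Ifngr2*, -0.92 to 0.075 for *Slc2a5* and -0.39 to 0.053 for *Gp1bb*. The cause of these changes was not tested. The FPKM sums that TPM makes equal were 13025905, 12226958 and 3537481 in the WT libraries against 4018738 and 1531575 in the Ins2-AKITA libraries. In all, 35 of 400 values of single genes under an alternative turned sign. The filter and the prior cannot change a fold change, and the replicate block repeats the values without WT replicate 3. *Lyve1* and *Pf4* were left out, as no fold change is given for them.

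WT replicate 3 has no Ins2-AKITA mouse of its number, so the fold changes with the replicate block equal those without WT replicate 3. *Mrc1* was then at -0.034, the one sign that turned. With the block, 1249 genes had an unadjusted limma p under 0.05, against 726 in the main fit and 1426 without WT replicate 3. The deviations of same-numbered mice correlated across genes at 0.0512 and -0.0343. A group of 2 always deviates in mirror image, and pairing by number could therefore not be established. Depth is a limit for the 10 genes, as 8 of them rest on under 50 estimated fragments over all 5 mice.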
